A study of Homo sapiens and Canis lupus familiaris with 27 samples.

Results

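The keratins described here are 10 intermediate filament genes, KRT81, KRT83, KRT86, KRT80, KRT7, KRT8, KRT18, KRT19, KRT5 and KRT17, among 23708 genes in the count tables of 2 human prostate carcinoma cell lines and 16028 in the table of a canine one. They were taken by name. KRT81 was picked because it had the largest rise with PDA-66 in PC-3 cells, and the other hair keratins and the simple epithelial keratins were taken for comparison with it. All 10 names were listed in the human tables, and 1 of the 10, KRT80, was listed in the canine table. The other 9 were not analysed in the canine cells.

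The study exposed the cells to PDA-66, an indolylmaleimide derivative that disturbs microtubules, and sequenced their polyadenylated RNA. PC-3 is a line of prostate adenocarcinoma grown from a bone marrow metastasis, LNCaP came from a lymph node metastasis, and CT1258 is a canine prostate adenocarcinoma line. Each line had 3 groups: 15 µM PDA-66 for 12 h, 15 µM PDA-66 for 24 h, and 24 h in the solvent DMSO alone at 0.15%, so that both PDA-66 times shared the same DMSO samples. Each 12 h difference from DMSO thus sets 12 h with PDA-66 against 24 h with DMSO. In it, PDA-66 and time in culture cannot be told apart. Each line was kept in a culture medium of its own with fetal bovine serum. Of 27 samples, 26 had counts, 3 in each group except PC-3 DMSO, where replicate 1, which the study set aside as an outlier, had no column and 2 samples were left. By the study's methods the replicates of a condition were independent biological replicates, and p-values measure the spread between them within 1 cell line.

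Keratins form filaments only as pairs of a type II and a type I protein, and which pair a cell makes marks its kind of epithelium. KRT8 and KRT18 are the pair of simple epithelia such as the glands of the prostate, where KRT19 and KRT7 join them, while KRT5 with KRT14 or KRT17 is found in basal cells. KRT81, KRT83 and KRT86 are type II hair keratins, which build the hard filaments of the hair cortex and are not part of the usual pattern of a gland.

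The 3 hair keratins are close copies, and this sets what their counts can show. In the GRCh37 genome, KRT81 (chr12:52679697-52685318, minus strand) lay inside the annotated span of KRT86 (chr12:52643084-52702947, plus strand) with no exon in common, and KRT83 (chr12:52708085-52715182, minus strand) lay beside them. The coding sequence of KRT81 was 94.2% identical to that of KRT86 and 93.4% identical to that of KRT83, against 67.8% for KRT80 and 73.2% for KRT8. The libraries were read as single reads of 75 bases, and of the 1855 windows of that length in the KRT81 transcript, 36.6% also occurred elsewhere in the genome or in the transcript of another gene, 33.0% in KRT86 and 1.13% in KRT83. The sources used here do not give the treatment of reads that matched more than 1 gene. To show what a read can tell apart, the same coding stretch is printed for the 3 genes at a place where KRT81 and KRT86 do not differ, KRT81 exon 2 (chr12:52683972-52684046, minus strand), KRT83 exon 2 (chr12:52713050-52713124, minus strand) and KRT86 exon 4 (chr12:52696908-52696982, plus strand), each 5′ to 3′ on the coding strand with capitals for bases that differ from KRT81.
KRT81: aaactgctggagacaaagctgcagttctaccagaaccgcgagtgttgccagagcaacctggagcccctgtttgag
KRT83: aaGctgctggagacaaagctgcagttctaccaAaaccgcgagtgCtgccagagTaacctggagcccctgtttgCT
KRT86: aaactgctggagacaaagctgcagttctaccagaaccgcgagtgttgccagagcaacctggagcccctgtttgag
Here KRT83 differed from KRT81 at 6 bases and KRT86 at 0, so a read from this stretch fits KRT81 and KRT86 equally well.

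A second stretch separates all 3 genes, KRT81 exon 5 (chr12:52681777-52681851, minus strand), KRT83 exon 5 (chr12:52710652-52710726, minus strand) and KRT86 exon 7 (chr12:52699105-52699179, plus strand), with capitals used in the same way.
KRT81: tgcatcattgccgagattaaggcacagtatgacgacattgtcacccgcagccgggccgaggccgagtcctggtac
KRT83: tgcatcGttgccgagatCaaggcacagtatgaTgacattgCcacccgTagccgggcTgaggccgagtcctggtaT
KRT86: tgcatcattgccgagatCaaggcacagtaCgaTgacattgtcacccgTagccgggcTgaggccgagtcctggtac
KRT83 differed from KRT81 at 7 bases of this stretch and KRT86 at 5. Windows of 75 coding bases within 1 exon of KRT81 were also compared. Only those whose nearest KRT83 and KRT86 windows also lay within 1 exon and in coding sequence were kept. Of these 839, 427 were identical in KRT86, and 0 were identical in both KRT83 and KRT86.

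Total counts ran from 14650839 to 18091755 per sample in PC-3, from 11923105 to 14741883 in LNCaP and from 7203534 to 20976950 in CT1258. In CT1258 the DMSO samples held 19909616 to 20976950 counts and all PDA-66 samples 7203534 to 8325867. Depth and treatment therefore cannot be told apart in the CT1258 differences from DMSO given below. PC-3 carried HOXB13 at 781 CPM (counts scaled to library size with TMM, within each line) in DMSO, but no read of KLK2. LNCaP carried KLK3 at 48.8 CPM. In CT1258, the luminal prostate genes TMPRSS2 and ACPP had no reads. The LNCaP 12 h replicate 2 stood apart, at a mean log2 distance of 2.19 from the other samples of its group against 0.877 to 1.58 for the other 8 LNCaP samples, so LNCaP results are given with and without it.

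Among the keratins tested in PC-3, KRT81 had the largest fitted log2 difference from DMSO at 12 h. It went from a low level in DMSO to the highest level per kilobase of any of the 10 genes after 12 h. At 24 h KRT37, a type I hair keratin under 1 CPM in DMSO, had a larger log2 difference, 4.47 against 4.18. The DMSO samples of KRT81 held 10.7 and 7.11 CPM. The 12 h samples, of which 2 are known only as P12-1 and P12-2 because their replicate numbers are not clear, held 581 (P12-1), 651 (P12-2) and 626 CPM (replicate 3), and the 24 h samples held 141, 154 and 192 CPM. All 6 PDA-66 samples lay above both DMSO samples, and all 24 h samples lay below all 12 h samples. The group means were 8.92 ± 2.57 CPM (SD, n = 2), 619 ± 35.6 CPM (SD, n = 3) and 162 ± 26.3 CPM (SD, n = 3), a ratio of 69.4 at 12 h and 18.2 at 24 h. On the log2 scale the fitted difference was 6.12 (SE 0.20) at 12 h, 4.18 (SE 0.19) at 24 h and -1.93 (SE 0.13) between 24 h and 12 h. These values chose the gene and are given with no test. Among genes with at least 10 CPM that were called at the study's threshold, an adjusted p under 0.001, KRT81 led at 12 h before SERPINB7 (log2 difference 3.94) and at 24 h before CYP1B1 (3.66). Without DMSO replicate 2 the 12 h value was 6.45 and without DMSO replicate 3 it was 5.86. In bulk samples such as these, more cells with a transcript and more of it per cell cannot be told apart.

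**Figure D1:**
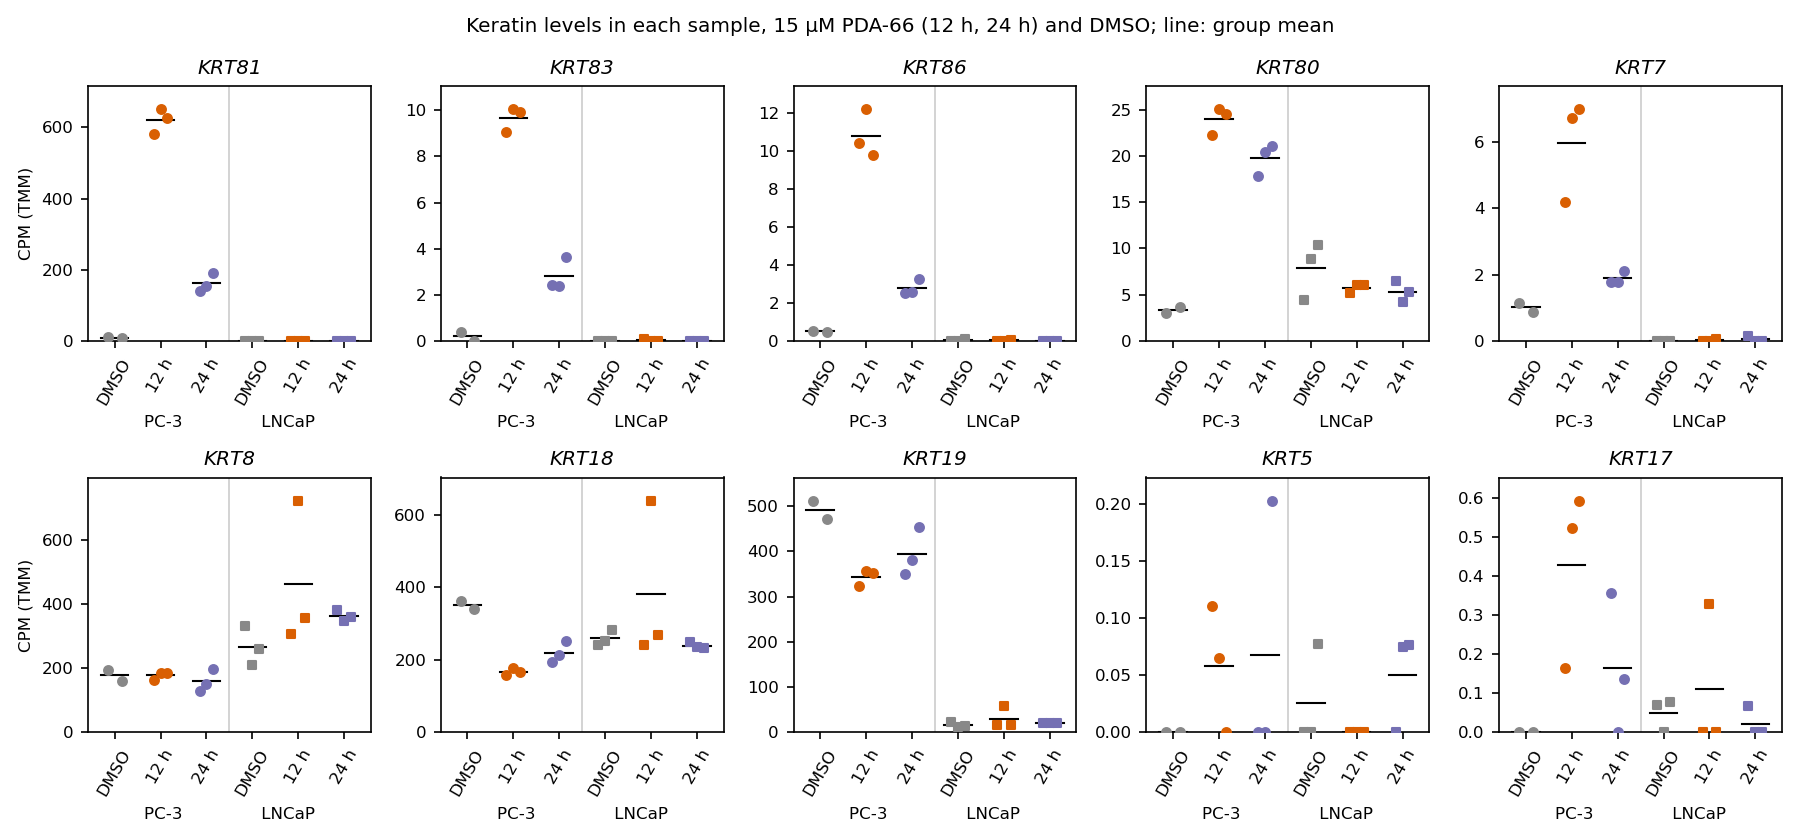
Level of each of the 10 keratins in every PC-3 (circles) and LNCaP (squares) sample, in CPM scaled by TMM within each line, with a line at the group mean and an axis of its own for each gene. In PC-3, KRT81 lay at 581 to 651 CPM after 12 h and at 7.11 to 10.7 CPM in DMSO, while KRT8, KRT18 and KRT19 were the keratins with group means over 10 CPM in LNCaP.

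KRT83 and KRT86 followed the order of KRT81 in PC-3, at far lower levels. KRT83 held 0.405 and 0 CPM in DMSO, 9.05, 10.1 and 9.95 CPM at 12 h, and 2.43, 2.38 and 3.65 CPM at 24 h. KRT86 held 0.540 and 0.469 CPM in DMSO, 10.4, 12.2 and 9.77 CPM at 12 h, and 2.55, 2.57 and 3.25 CPM at 24 h. For both genes the 3 groups did not overlap. The fitted log2 difference from DMSO was 5.53 (SE 0.44) at 12 h and 3.74 (SE 0.53) at 24 h for KRT83. For KRT86 it was 4.40 (SE 0.26) at 12 h and 2.44 (SE 0.31) at 24 h. Both genes were under 1 CPM in DMSO and passed the filter on low counts through the PDA-66 samples, so that their difference was part of what let them in. The KRT83 value rested on 6 reads in DMSO replicate 2 and 0 in replicate 3, and it was 4.56 without replicate 3 and 10.3 without replicate 2 at 12 h, and 2.78 and 8.50 at 24 h.

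The make-up of the 3 hair keratins was read from the counts within each PC-3 sample. Of the reads given to KRT81, KRT83 and KRT86 together, 2469 to 10907 in each PDA-66 sample, KRT83 took 1.49% to 1.84% and KRT86 took 1.51% to 1.81%. The shares of KRT83 and KRT86 were alike at 12 h and 24 h within their exact (Clopper-Pearson) 95% intervals, although the sum of the 3 genes differed by -1.93 on the log2 scale between those times. In DMSO replicate 2, KRT86 had 8 of 173 reads, a share of 4.62% with an interval of 2.02% to 8.91%, and in replicate 3 it had 7 of 113 reads, 6.19% with an interval of 2.53% to 12.4%. Both intervals lay above the KRT86 shares of the 6 PDA-66 samples. The interval of replicate 3 also lay above the intervals of those shares, which reached 2.34%, while that of replicate 2 overlapped some of them. KRT83 had 6 of 173 reads in DMSO replicate 2, a share of 3.47% (1.28% to 7.40%), and 0 of 113 in replicate 3, where the interval reached 3.21%. These intervals cover counting error only. How many KRT83 and KRT86 reads came from KRT81 transcripts was not tested, and the sum of the 3 genes, which does not depend on that split, had log2 differences from DMSO of 6.05 at 12 h and 4.12 at 24 h.

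**Figure D2:**
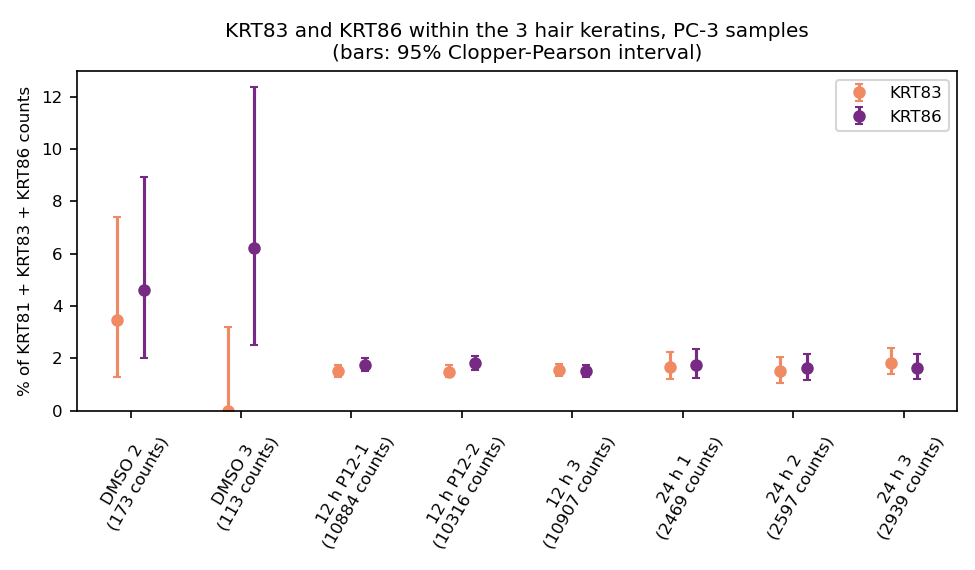
Share of KRT83 (orange) and KRT86 (purple) in the summed counts of KRT81, KRT83 and KRT86 in each PC-3 sample, in percent, with exact 95% intervals that cover counting error only and the summed counts under each sample. In the 6 PDA-66 samples both shares lay between 1.49% and 1.84%, and in DMSO KRT86 lay at 4.62% and 6.19%.

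KRT80 and KRT7, type II keratins outside the hair group, were also higher with PDA-66 in PC-3, with different time courses. KRT80, a keratin of several stratified and simple epithelia, held 3.04 and 3.62 CPM in DMSO, 22.2, 25.1 and 24.6 CPM at 12 h, and 17.8, 20.5 and 21.0 CPM at 24 h. The 24 h samples of KRT80 lay just under its 12 h samples, with a log2 difference between the times of -0.28 (SE 0.11), against 2.84 (SE 0.16) and 2.57 (SE 0.16) from DMSO. KRT7, a keratin of simple and transitional epithelia, held 1.15 and 0.872 CPM in DMSO, 4.19, 6.72 and 6.99 CPM at 12 h, and 1.78, 1.77 and 2.10 CPM at 24 h. The 24 h samples of KRT7 lay between the other 2 groups with no overlap, with log2 differences of 2.55 (SE 0.30) at 12 h and 0.89 (SE 0.34) at 24 h. No window of 75 bases of KRT80 or KRT7 occurred elsewhere, so their reads are not shared with the hair keratins, and 13.6% of the KRT7 exon bases overlap the antisense gene KRT7-AS, whose reads cannot be told apart without strand.

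The simple epithelial keratins of PC-3 did not follow the hair keratins. KRT18 held 361 and 339 CPM in DMSO, 159, 177 and 166 CPM at 12 h, and 193, 214 and 252 CPM at 24 h. All PDA-66 samples of KRT18 lay under both DMSO samples, with log2 differences of -1.06 (SE 0.11) at 12 h and -0.67 (SE 0.11) at 24 h. KRT19, a type I keratin with no fixed partner, held 512 and 470 CPM in DMSO, 324, 356 and 352 CPM at 12 h, and 350, 381 and 453 CPM at 24 h. These groups also did not overlap with DMSO, at log2 differences of -0.51 (SE 0.11) and -0.32 (SE 0.11), though edgeR's quasi-likelihood test did not call KRT19, while DESeq2 and edgeR's likelihood ratio test called it lower at 12 h. KRT8, the usual partner of KRT18, held 195 and 161 CPM in DMSO, 164, 185 and 184 CPM at 12 h, and 128, 152 and 196 CPM at 24 h. Its 3 groups overlapped, and its log2 differences were -0.01 (SE 0.15) and -0.17 (SE 0.15). Here 22.5% of KRT8 windows and 7.17% of KRT18 windows occurred elsewhere, with 11.1% of the KRT8 windows in the pseudogene KRT8P3, and 375 exon bases of KRT18 (26.5%) overlap KRT8 on the other strand. Reads from these places are uncertain, while no KRT19 window occurred elsewhere.

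KRT5 and KRT17, keratins of basal cells, were near the limit of detection in PC-3 and were not tested. KRT5 had 6 reads in all 8 samples, and 0 in DMSO. KRT17 had 0 reads in both DMSO samples, 3, 8 and 10 reads at 12 h and 6, 0 and 2 reads at 24 h. Against a floor of 3 counts over the DMSO group, the mean KRT17 level was 4.23 times as high at 12 h and 1.62 times as high at 24 h. These ratios leave out the counting error of the few PDA-66 reads and are not lower bounds. The 24 h replicate 2 had 0 reads, like both DMSO samples.

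Of the 10 keratins, 8 were tested in PC-3. In the comparison of 12 h with DMSO, KRT81, KRT83, KRT86, KRT80 and KRT7 were called higher and KRT18 was called lower, where 27.6% of the 13777 genes tested were called, 13% higher and 14.6% lower. At 24 h, KRT81, KRT83, KRT86 and KRT80 were called higher and KRT18 lower, where 19.3% were called, 8.88% higher and 10.5% lower. Between 24 h and 12 h, KRT81, KRT83, KRT86 and KRT7 were called lower at 24 h, where 1.41% were called and 0.631% were called lower. KRT81 had been chosen from these samples, so the counts describe them and nothing is read from them. With limma voom the KRT7 call at 12 h and the KRT83 and KRT86 calls at 24 h were lost. The KRT18 call at 24 h was lost with only the 2 groups compared, without 24 h replicate 1 and without 24 h replicate 2. Between the times, 2 of the 4 calls, KRT81 and KRT86, were kept and KRT83 and KRT7 were lost in each of 5 fits that left out 1 of P12-2, 12 h replicate 3 or a 24 h replicate. By fitted log2 difference at 12 h, KRT81 ranked 10, KRT83 ranked 12, KRT86 ranked 18, KRT80 ranked 81 and KRT7 ranked 107 among the 13777 genes.

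Other markers of the epithelium moved in the same PC-3 samples. The summed level of 10 luminal prostate genes was 1197 to 1291 CPM in DMSO, 414 to 429 CPM at 12 h and 622 to 659 CPM at 24 h, with no read of KLK2 in any sample, and HOXB13 and FOXA1 made up most of it. The sum of 10 basal epithelial genes was 605 to 865 CPM, 419 to 440 CPM and 547 to 644 CPM in the same order. The sum of 6 epithelial genes was 82.5 to 114 CPM, 79.9 to 85.4 CPM and 90.3 to 94.3 CPM. The sum of 8 mesenchymal genes was 2074 to 2671 CPM in DMSO, 2142 to 2224 CPM at 12 h and 1885 to 1999 CPM at 24 h. These sums hide members that moved apart. VIM made up most of the mesenchymal sum, in which CDH2, a cadherin of mesenchymal cells, was called higher at 12 h (log2 difference 1.65) and SPARC, a matrix protein, lower (-4.75). In the basal sum SNAI2 was called higher (1.16), and in the epithelial sum CDH1, E-cadherin, was called lower (-2.44). The sum of 6 neuroendocrine genes, nearly all of it ENO2, was 145 to 159 CPM in DMSO, 52.9 to 59.6 CPM at 12 h and 60.8 to 72.4 CPM at 24 h. The part of these genes in the keratin differences was not tested.

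**Figure D3:**
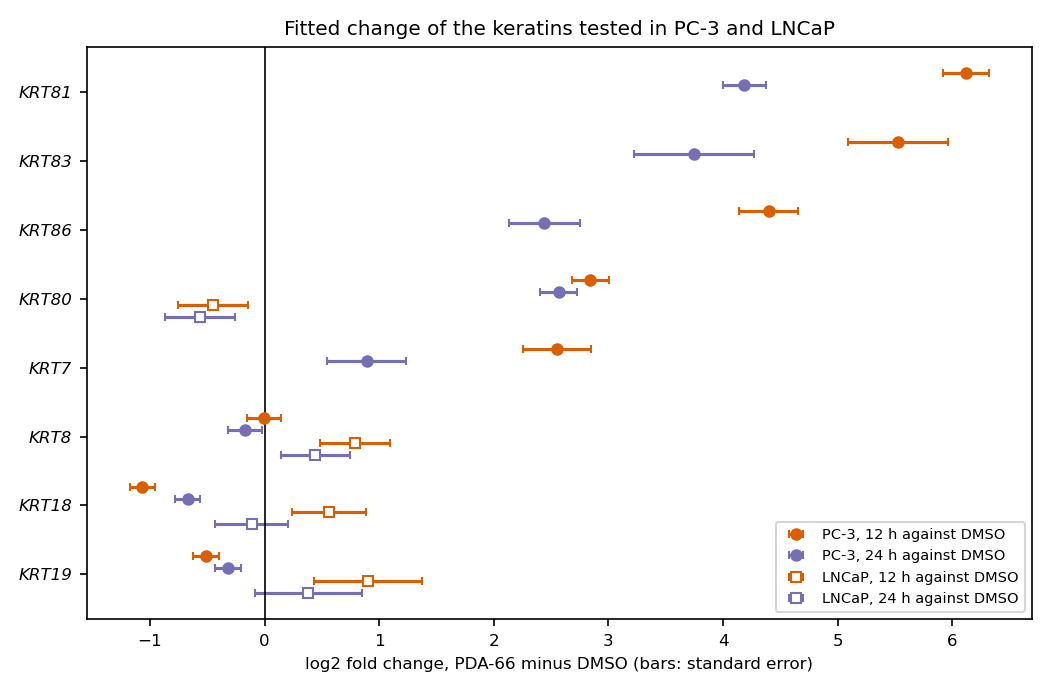
Fitted log2 fold change, PDA-66 minus DMSO, for the keratins that passed the filter on low counts in PC-3 (filled circles) or LNCaP (open squares) at 12 h (orange) and 24 h (purple), with bars of 1 standard error. The hair keratins of PC-3 lay at 2.44 to 6.12, and the LNCaP values of KRT80, KRT8, KRT18 and KRT19 lay between -0.56 and 0.90.

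Levels of different keratins were compared as CPM per kilobase of transcript. In PC-3 DMSO samples the order was KRT19 (353), KRT18 (248), KRT8 (99.9), KRT81 (4.63), KRT80 (0.860), KRT7 (0.621), KRT86 (0.225) and KRT83 (0.108), and only the last 2 overlapped. At 12 h KRT81 (321) stood first, above KRT19 (248), KRT18 (118) and KRT8 (99.6), with no overlap between these neighbours. KRT80 (6.19), KRT83 (5.16), KRT86 (4.81) and KRT7 (3.67) came next, where KRT83 and KRT86 overlapped. At 24 h KRT19 (284) and KRT18 (156) stood first again, KRT8 (88.9) and KRT81 (84.2) overlapped, and KRT83 (1.51), KRT86 (1.24) and KRT7 (1.16) could not be ordered beyond their spread.

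KRT81 came to hold a large part of all keratin reads of PC-3. It took 0.616% ± 0.177 (SD, n = 2) of the counts of the 55 keratin genes listed in DMSO, 37.6% ± 0.26 (SD, n = 3) at 12 h and 12.3% ± 0.26 (SD, n = 3) at 24 h. Per kilobase, the 3 hair keratins were 0.695% of the 10 keratins in DMSO, 41.0% at 12 h and 14.0% at 24 h. The sum of the 10 per kilobase was 707 ± 46.9 in DMSO, 807 ± 45.2 at 12 h and 622 ± 93.01 at 24 h, while KRT7, KRT8, KRT18 and KRT19 together went from 702 to 469 and 530. The ratio of type II to type I keratins among the 10 was 0.177, 1.20 and 0.412 in the same order. It leaves out other keratins of PC-3 and is not the ratio over all keratins of the cells. Among those left out were type II KRT75, with group means of 219, 204 and 271 CPM, and type I KRT20, with 93.6, 5.52 and 10.5 CPM. Type I KRT10 and KRT15 were left out too. Within the pair KRT8 and KRT18 alone, the ratio per kilobase was 0.403, 0.841 and 0.567, with no overlap between the groups. In LNCaP the type II to type I ratio was 0.779 ± 0.187 in DMSO, 0.924 ± 0.0909 at 12 h and 1.11 at 24 h.

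**Figure D4:**
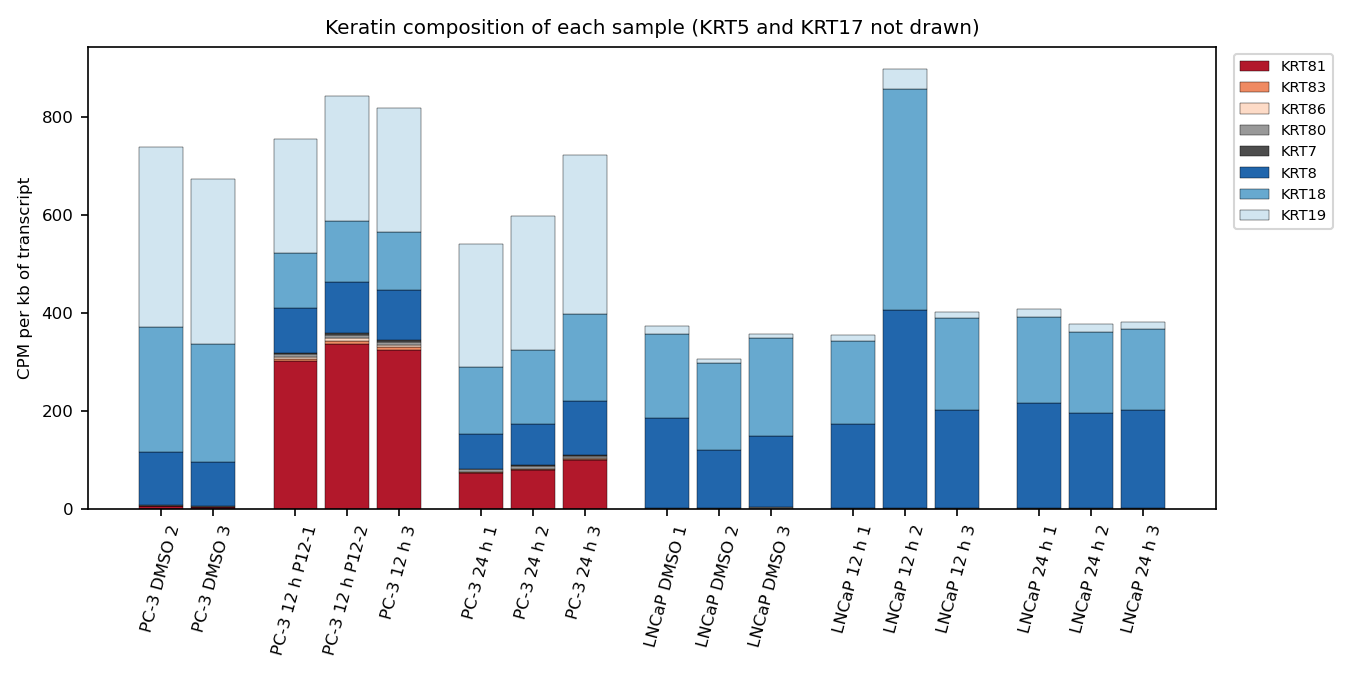
Stacked levels of 8 keratins in each PC-3 and LNCaP sample, in CPM per kilobase of transcript, with KRT5 and KRT17 left out as too low to see. The red block of KRT81 is 321 of a mean of 807 per kilobase in PC-3 at 12 h, while LNCaP samples consist of KRT8 and KRT18 with a thin band of KRT19, and the LNCaP 12 h replicate 2 stands above the other LNCaP samples.

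The hair keratins were next to absent from LNCaP with or without PDA-66. KRT81 had 1 read in all 9 LNCaP samples, in 24 h replicate 1, KRT83 had 1 read, in 12 h replicate 1, and KRT86 had 2. KRT7 and KRT5 had 3 reads each, and KRT17 had 7, of which 4 were in the 12 h replicate 2. In the LNCaP 12 h group, with 0 reads of KRT81, 3 counts over the group would be 0.0729 CPM. These 6 keratins were therefore not tested in LNCaP, and differences between levels this close to 0 could not be read at this depth. A rise like that of KRT81 in PC-3 would have been seen. Its 12 h mean of 619 CPM there was 8496 times the 0.0729 CPM, with each line scaled on its own.

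The 4 keratins tested in LNCaP, KRT8, KRT18, KRT19 and KRT80, did not pass the threshold for any comparison by edgeR's quasi-likelihood test, where 0.0076% of 13156 genes were called at 12 h and 0 at 24 h. At an unadjusted p under 0.05, 3950 genes stood at 12 h and 2599 at 24 h. KRT8 held 331, 209 and 259 CPM in DMSO, 307, 721 and 356 CPM at 12 h, and 382, 347 and 359 CPM at 24 h. The 24 h samples lay above all DMSO samples, while the 12 h group overlapped DMSO and held the highest value in replicate 2. The log2 difference of KRT8 was 0.79 at 12 h (95% interval 0.05 to 1.54, edgeR adjusted p = 0.125) and 0.44 at 24 h (-0.30 to 1.19, edgeR adjusted p = 0.475), and over the alternative settings the adjusted p ran from 0.00806 to 0.343 and from 0.00289 to 0.814. Without the 12 h replicate 2, the 12 h value was 0.32 (edgeR adjusted p = 0.159).

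KRT18 held 242, 252 and 283 CPM in LNCaP DMSO samples, 241, 639 and 268 CPM at 12 h, and 249, 236 and 233 CPM at 24 h. Apart from the 12 h replicate 2, the LNCaP samples of KRT18 covered 233 to 283 CPM with no split by group. Its log2 difference was 0.56 at 12 h (-0.23 to 1.35, edgeR adjusted p = 0.264), which became -0.02 (edgeR adjusted p = 0.890) without that replicate, and -0.11 at 24 h (-0.90 to 0.67, edgeR adjusted p = 0.897). KRT19 held 23.2, 11.8 and 13.4 CPM in DMSO, 15.9, 57.6 and 17.2 CPM at 12 h, and 21.7, 20.1 and 21.3 CPM at 24 h. Its groups overlapped, and the log2 difference was 0.90 at 12 h (-0.25 to 2.05, edgeR adjusted p = 0.224), or 0.04 (edgeR adjusted p = 0.917) without the 12 h replicate 2. At 24 h the log2 difference of KRT19 was 0.38 (-0.77 to 1.53, edgeR adjusted p = 0.722).

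KRT80 had the opposite sign in LNCaP from PC-3, within the spread of the LNCaP samples. It held 4.37, 8.89 and 10.4 CPM in DMSO, 5.18, 6.09 and 6.03 CPM at 12 h, and 6.43, 4.25 and 5.29 CPM at 24 h. The groups overlapped through DMSO replicate 1, which was lower than the other 2 DMSO samples. The log2 difference was -0.45 at 12 h (-1.20 to 0.30, edgeR adjusted p = 0.343) and -0.56 at 24 h (-1.32 to 0.19, edgeR adjusted p = 0.355), with -0.48 (edgeR adjusted p = 0.273) at 12 h without the 12 h replicate 2. The intervals of all 4 genes in LNCaP reached well past a log2 difference of 0.5 in at least 1 direction, so that moderate differences could not be seen in these samples. Between 24 h and 12 h the edgeR adjusted p of the 4 genes was 0.643 to 0.903. Without the 12 h replicate 2, 0 of them were called in any comparison, a count added after seeing the data. Whether PC-3 and LNCaP differed in their response was not tested.

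Per kilobase, the order in LNCaP DMSO samples was KRT18 (183), KRT8 (149), KRT19 (11.6) and KRT80 (2.04), where KRT18 and KRT8 overlapped. At 12 h KRT18 (271) and KRT8 (259) overlapped as well, above KRT19 (21.8) and KRT80 (1.49). At 24 h KRT8 (203) stood above KRT18 (169) with no overlap, and KRT19 (15.1) and KRT80 (1.37) followed.

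The DMSO groups of PC-3 and LNCaP were compared in a fit over both lines, in which 40.8% of 15018 genes were called. Of KRT83, KRT86, KRT80, KRT7, KRT8, KRT18 and KRT19, 3 were called, KRT19, KRT7 and KRT86. All 3 were higher in PC-3, as 21.7% of the genes were. The count is near the share over all genes, and nothing is read from it. KRT86 and KRT83 were under 1 CPM in DMSO and passed the filter through the PDA-66 samples of PC-3. KRT19 had 499 CPM in PC-3 and 16.1 CPM in LNCaP when scaled together, a log2 difference of 4.95 (SE 0.42, edgeR adjusted p = 2.26e-08). KRT7 had 30 reads in the 2 PC-3 samples and 0 in the 3 LNCaP samples (edgeR adjusted p = 3.68e-05). Its PC-3 mean was 13.2 times the floor of 3 counts in the LNCaP group. KRT86 had 15 reads against 1, a ratio of 19.8 with a counting interval of 3.05 to 835 (edgeR adjusted p = 0.000475). Over the alternatives the adjusted p of KRT86 ran from 4.99e-05 to 0.0104, and its call was lost with DESeq2 (0.00149) and limma voom (0.0104), without PC-3 DMSO replicate 2 (0.00377) or 3 (0.00224) and without LNCaP DMSO replicate 1 (0.00272) or 2 (0.00237).

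The other keratins tested did not pass that threshold between the lines. KRT80 was lower in PC-3, at 3.39 against 7.88 CPM, with a log2 difference of -1.21 (SE 0.29, edgeR adjusted p = 0.00167, and 1.89e-05 to 0.0247 over the alternatives), and it was called by DESeq2 (adjusted p = 0.000201), by edgeR's likelihood ratio test (0.000150), with library size scaling (0.000787), without LNCaP DMSO replicate 1 (1.89e-05) and without LNCaP 12 h replicate 2 (0.000699). KRT8 (log2 difference -0.55, edgeR adjusted p = 0.101) and KRT18 (0.46, edgeR adjusted p = 0.158) did not pass. KRT83 had 6 reads in PC-3, all in 1 sample, and 0 in LNCaP (edgeR adjusted p = 0.0278). Its PC-3 mean was 2.65 times the floor of 3 counts in the LNCaP group, which is not a lower bound. KRT81, chosen for PC-3 and left out of this test, had 8.92 CPM in PC-3 and no read in LNCaP. Its PC-3 mean was 117 times the LNCaP floor of 3 counts, with each line scaled on its own. At an adjusted p under 0.05, 5 keratins passed, KRT80 and KRT83 beside the first 3, where 63.6% of genes did. Line and culture medium cannot be told apart in these comparisons.

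In CT1258, KRT80 had 1 read, in DMSO replicate 2, and was not tested. Of the other 27 keratins listed in the canine table, 1 passed the filter, KRT10, a type I keratin of the upper epidermis. KRT10 held 34.0, 44.6 and 32.5 CPM in DMSO, 57.1, 49.9 and 52.4 CPM at 12 h, and 28.2, 26.2 and 23.3 CPM at 24 h, with no overlap between the 3 groups. It fell from 12 h to 24 h by 1.03 on the log2 scale (edgeR adjusted p = 0.000233), where 2.13% of 9886 genes were called. Its log2 differences from DMSO were 0.52 at 12 h (edgeR adjusted p = 0.00209, 44.3% of genes called) and -0.51 at 24 h (edgeR adjusted p = 0.00381, 33.8% called), short of the threshold.

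Across the 8 PC-3 samples, the genes whose log2 CPM was most like that of KRT81 by Pearson's r were AXL (0.998), TNC (0.998), SNN (0.998), SH3RF1 (0.997) and SPOCK1 (0.997), out of 10267 genes at 10 CPM or more. AXL, a receptor tyrosine kinase, went from a mean of 35.8 CPM in DMSO to 264 CPM at 12 h and 154 CPM at 24 h. TNC, the matrix protein tenascin C, went from 91.9 to 438 and 266 CPM, and SPOCK1, a secreted proteoglycan, from 7.64 to 49.99 and 28.9 CPM. SNN and SH3RF1 showed the same order of the groups, with SNN at 4.81, 19.3 and 12.2 CPM and SH3RF1 at 25.6, 54.1 and 43.8 CPM. The 8 samples fall into 3 treatment groups and share their libraries, so r mostly reads the order of the group means, and 47 genes had an r above 0.99. KRT86 had an r of 0.982 and KRT80 of 0.960 with KRT81, KRT8 of 0.015, KRT19 of -0.847 and KRT18 of -0.948.

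Among the 45 further keratins of the human tables, 11 were tested in PC-3, and 5 with the highest levels were KRT75, KRT10, KRT20, KRT15 and KRT34. KRT75, a type II keratin of the hair follicle, held 191 and 247 CPM in DMSO, 183, 215 and 214 CPM at 12 h, and 231, 265 and 315 CPM at 24 h, and each PDA-66 group overlapped DMSO. KRT10 held 42.3 and 50.4 CPM in DMSO, 38.8 to 41.7 CPM at 12 h and 31.8 to 35.2 CPM at 24 h. Neither was called by edgeR's quasi-likelihood test, while DESeq2, edgeR's likelihood ratio test and the fit without DMSO replicate 2 called KRT10 lower at 24 h.

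KRT20, a type I keratin of intestinal and urothelial cells, was the keratin with the largest drop in PC-3, from 74.01 and 113 CPM in DMSO to 4.91, 6.14 and 5.51 CPM at 12 h and 9.78, 10.1 and 11.6 CPM at 24 h. KRT15, a type I keratin of basal cells, went from 44.2 and 40.4 CPM to 5.68, 5.87 and 6.93 CPM and to 8.60, 9.78 and 12.2 CPM. Their log2 differences were -4.09 and -3.16 for KRT20 and -2.78 and -2.05 for KRT15 at 12 h and 24 h. KRT34, a type I hair keratin, held 0.675 and 3.02 CPM in DMSO, 22.6, 24.5 and 21.4 CPM at 12 h, and 9.84, 10.9 and 13.7 CPM at 24 h, log2 differences of 3.62 and 2.63. All 3 were called in PC-3 at both times.

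Further keratins of PC-3 were chosen for naming after their values were seen. KRT37, a type I hair keratin, held 0.0675 and 0.268 CPM in DMSO, 3.64, 4.37 and 4.20 CPM at 12 h, and 3.85, 3.54 and 4.33 CPM at 24 h, so that it did not come down between the times as KRT81 did. Its log2 differences from DMSO were 4.53 at 12 h and 4.47 at 24 h, the second above that of KRT81. KRT38, also a type I hair keratin, held 0.135 and 0.134 CPM in DMSO, 1.66, 1.24 and 2.19 CPM at 12 h, and 0.711, 1.47 and 0.473 CPM at 24 h. KRT6B, a type II keratin of stressed or fast-growing epithelia, held 10.4 and 7.24 CPM in DMSO, 1.93, 1.70 and 1.54 CPM at 12 h, and 7.47, 6.78 and 8.12 CPM at 24 h. Its 24 h samples were back within the range of DMSO or just under it. In all, of the 11 tested, KRT34, KRT37 and KRT38 were called higher and KRT20, KRT15 and KRT6B lower at 12 h, and KRT34 and KRT37 higher and KRT20 and KRT15 lower at 24 h, where 27.6% and 19.3% of all genes were called. The KRT38 call was lost with limma voom, without either DMSO replicate and without 12 h replicate 3. Of 17 hair keratins listed, 8 were tested in PC-3, and KRT83, KRT86, KRT37, KRT38, KRT32 and KRT36 among them were under 1 CPM in DMSO and passed the filter through the PDA-66 samples. The 9 not tested had 1 to 11 reads in all 8 samples together, and 0 of the 17 were tested in LNCaP, where each had 0 to 6 reads.

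**Figure D5:**
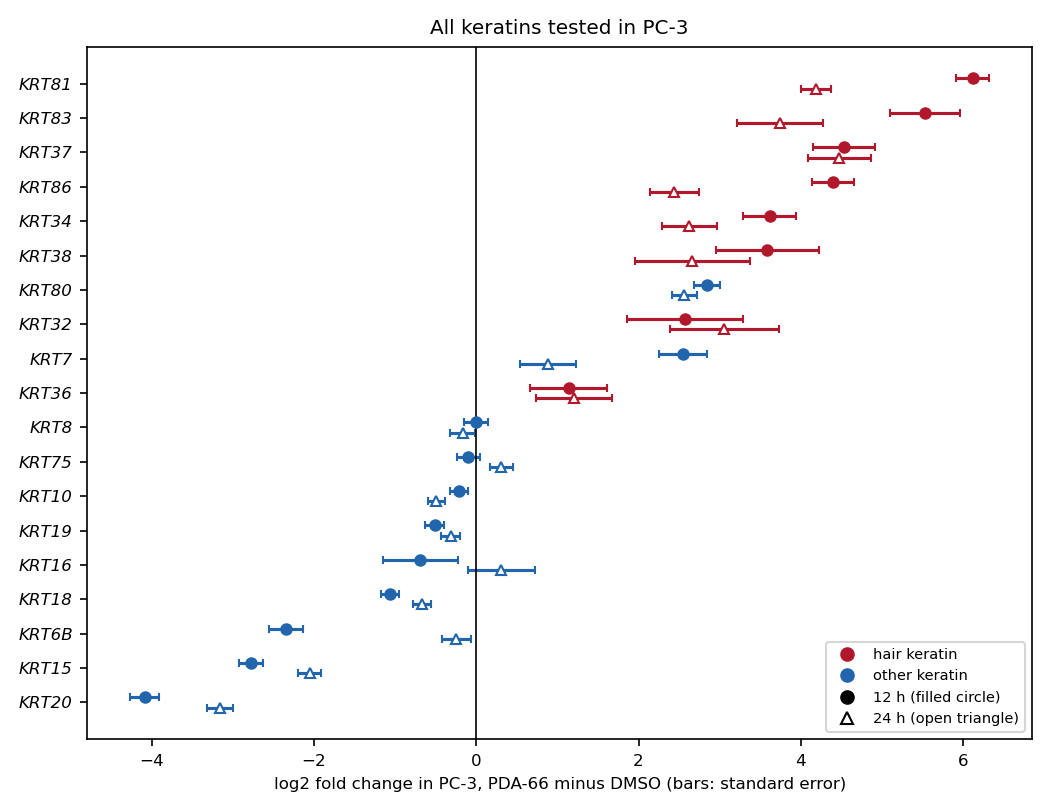
Fitted log2 fold change in PC-3, PDA-66 minus DMSO, of all 19 keratins tested, at 12 h (filled circles) and 24 h (open triangles), with bars of 1 standard error, hair keratins in red and other keratins in blue. The 8 hair keratins lay above 0, where KRT36 was lowest, and KRT20, KRT15, KRT6B and KRT18 lay lowest among the others at 12 h. KRT83, KRT86, KRT37, KRT38, KRT32 and KRT36 were under 1 CPM in DMSO and passed the filter through the PDA-66 samples. KRT81 was chosen for its rise. Nothing is therefore read from the shared sign of the hair keratins.

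In LNCaP, 3 further keratins were tested, KRT10, KRT14 and KRT75. KRT75 held 4.59, 5.51 and 5.79 CPM in DMSO, 0.0664, 0.247 and 0.215 CPM at 12 h, and 0.203, 0.224 and 0.0766 CPM at 24 h. The groups lay far apart, at log2 differences of -4.88 (edgeR adjusted p = 0.00113) and -4.89 (edgeR adjusted p = 0.00164), just short of the threshold. Without the LNCaP 12 h replicate 2, KRT75 was called lower, at log2 differences of -5.16 at 12 h (edgeR adjusted p = 0.000286) and -4.89 at 24 h (edgeR adjusted p = 9.38e-05), where 1.96% and 0.787% of 13335 genes were called, and this fit was added after seeing the data. KRT10 and KRT14 were not called with or without that library.

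The partners that tie keratin filaments to the cell were read in PC-3 from a list of 24 genes for other filaments, plakins and desmosomes, of which 20 were tested. At 12 h, 6 were called higher and 4 lower, where 27.6% of all genes were called, 13% higher and 14.6% lower, and the median log2 difference was 0.15 against -0.01 over all genes tested. The balance of the calls was not stable and moved in both directions. It was 9 higher and 4 lower with DESeq2 and with edgeR's likelihood ratio test, and 7 higher and 4 lower with no filter on low counts. It was 2 higher and 4 lower when only the 2 groups were compared or without 12 h replicate 3. Without P12-1 or P12-2 it was 2 higher and 3 lower. Periplakin (PPL), a linker of the cornified envelope, was 445 CPM in DMSO and 85.4 CPM at 12 h, integrin beta 4 (ITGB4), which anchors keratin at the base of the cell, was 431 and 189 CPM, and the desmosomal cadherin DSC2 was 224 and 104 CPM. Plectin (PLEC), which crosslinks filaments, was higher, at 2362 and 5216 CPM. At 24 h, where 19.3% of all genes were called, 1 was called higher (PKP4, a plakophilin, log2 difference 0.87) and 2 lower (PPL at -1.44 and DSC2 at -0.76), and without DMSO replicate 2 the count was 11 and without DMSO replicate 3 it was 7.

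The programme of stratified epithelium and that of the hair shaft were sparse in PC-3. Of 24 genes of stratified differentiation, 7 were tested, and CNFN (-1.31) and the transcription factor KLF4 (-0.82) were called lower at 12 h, while at 24 h KLF4 (-0.69) was called lower and FLG, the filaggrin gene, higher (1.78). In this list and the next, 2 of 7 genes were called at each time, where 27.6% of all genes were called at 12 h and 19.3% at 24 h, and nothing is read from these counts. Of 16 genes of the hair shaft and its regulators, 7 were tested, and beside KRT34 the transcription factor GATA3 was called higher at 12 h (1.06) and DLX3 at 24 h (2.97, from 0.438 to 3.48 CPM). Of these 7, DLX3, KRT32, LEF1 and TCHH were under 1 CPM in DMSO, and DLX3, KRT32 and LEF1 were higher in both PDA-66 groups, which was part of what let them pass the filter on low counts, so no median is given for the list. These lists were chosen with results of the same samples known. These counts changed with the setting, from 1 to 5 at 12 h and from 1 to 4 at 24 h for the hair list, and from 1 to 5 and from 0 to 4 for stratified differentiation.

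In LNCaP, edgeR called 0 genes of these 3 lists, of which 22, 7 and 5 genes were tested, and 0 as well without the 12 h replicate 2. In CT1258, 13 of the filament and desmosome genes were tested. At 12 h, where 44.3% of all genes were called, 2 rose and 5 fell, among them JUP, plakoglobin (-1.66, edgeR adjusted p = 7.83e-09), PPL (-1.37, edgeR adjusted p = 1.00e-06) and LMNA, lamin A/C (-0.94, edgeR adjusted p = 2.41e-06), and PKP4 rose (0.90, edgeR adjusted p = 4.52e-07). At 24 h, where 33.8% were called, 2 rose and 3 fell, with JUP at -1.36 (edgeR adjusted p = 5.58e-08), PPL at -1.31 (edgeR adjusted p = 2.54e-06), PKP4 at 0.94 (edgeR adjusted p = 6.01e-07) and DSG2, a desmosomal cadherin, at 0.60 (edgeR adjusted p = 0.000424). KLF4, the only gene of stratified differentiation tested there, fell, with log2 differences of -1.51 at 12 h (edgeR adjusted p = 2.18e-07) and -0.89 at 24 h (edgeR adjusted p = 2.54e-05), and 0 hair shaft genes were tested.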

How the data were processed

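The deposited files are 3 tables of raw counts per gene. Per the labels and the study's methods, polyadenylated RNA with an integrity number above 7 was made into NEBNext Ultra libraries and sequenced as single reads of 75 bases. The authors mapped human reads with STAR (HG19) and canine reads with BWA (CanFam3.1) and deposited the raw counts per gene. Whether strand was used and how reads with several matches were counted are not given in the sources used here. In 1 column, semicolons behind each deposited count were removed.

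Counts were analysed with edgeR 4.0.16 in R 4.3.3: filterByExpr, TMM scaling, glmQLFit and glmQLFTest in 1 fit per line over its 3 groups, with Benjamini-Hochberg adjustment over all genes tested and calls at an adjusted p under 0.001, the threshold of the study. Levels are CPM, counts scaled to library size with TMM within each line, per kilobase of 1 annotated transcript where genes are compared. Intervals of log2 differences are 95% intervals from the standard error and the residual degrees of freedom. The scripts were tested on simulated data. Shared windows and coding identities were computed on GRCh37 and its annotation, the same assembly as HG19.

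Alternatives were DESeq2 1.42.0, limma 3.58.1 voom, edgeR's likelihood ratio test, other scalings and filters, 2 groups only, a replicate block and leaving out each sample. The named genes were the 10 members, the 5 keratins of highest mean level, the 4 called genes of each list with the largest change at 1 CPM or more, and the 5 genes most like KRT81. Members and lists were chosen with earlier results of these data known. A marker gene among those checked is not reported here.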

Additional observations from a re-analysis of the deposited data

Results flagged for a closer look

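For KRT80, every PDA-66 sample of PC-3 lay above the DMSO mean and every PDA-66 sample of LNCaP lay below it, at both times. The mean difference, PDA-66 minus DMSO, was 20.6 CPM in PC-3 and -2.13 CPM in LNCaP at 12 h, and 16.4 CPM and -2.57 CPM at 24 h. For KRT19 at 24 h, every PC-3 sample lay below and every LNCaP sample above the DMSO mean of its line, with mean differences of -96.5 CPM in PC-3 and 4.92 CPM in LNCaP. These differences between the lines were not tested. Each group had 3 samples or fewer, so no sample was tested for lying far from the rest of its group.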

How the results depend on the processing

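The log2 fold change of KRT81 in PC-3 ran from 5.86 to 6.45 at 12 h and from 3.93 to 4.52 at 24 h over the fits that left out 1 sample, with the extremes when a DMSO sample was left out, which leaves 1 DMSO sample that is assumed to vary like the other groups. The members called between the DMSO groups were 3, against 5 at an adjusted p under 0.05 and 1 with limma voom. The list counts of PC-3 moved most. With the likelihood ratio test, stratified differentiation had 5 calls at 12 h and 4 at 24 h, hair shaft 5 and 4, filament partners 6 and the keratin family 7 at 24 h. With voom, stratified differentiation and hair shaft had 1 each at both times. DESeq2 gave 6 filament partners at 24 h and 4 hair shaft genes at 12 h, the fit with no filter gave 5 and 4, and library size alone gave 5 filament partners. With only the 2 groups compared, filament partners had 6, stratified differentiation 1 and hair shaft 1 at 12 h, and stratified differentiation 0 at 24 h. Leaving out 1 sample gave 5 to 14 filament partners, 1 to 3 stratified and 1 to 2 hair shaft calls at 12 h, and 3 to 11 filament partners and 0 to 2 stratified calls at 24 h. In LNCaP, the sign of the log2 difference turned with voom for KRT18 at 12 h (-0.0059), and between 24 h and 12 h for KRT8 (0.058) and KRT19 (0.30). Leaving out 1 sample gave -0.022 to 0.81 for KRT18 at 12 h, and between the times -0.57 to 0.13 for KRT8, -0.83 to 0.34 for KRT19 and -0.28 to 0.027 for KRT80, where the sign turned without the 12 h replicate 2 or, for KRT80, without 24 h replicate 2. The causes were not tested. Same-numbered samples did not deviate together (1 of 9 correlations over 0.1 in CT1258 and in LNCaP, 0 of 4 in PC-3), so numbers were taken as names. With the replicate block, members called in LNCaP were 0, the stratified list at 24 h had 1 call, and the KRT18 call in PC-3 at 24 h was lost. In LNCaP, 0 members were called under any alternative. The main fit called 0.0076% of all LNCaP genes at 12 h and 0 at 24 h. In CT1258 the 1 member listed, KRT80, had 1 read and did not pass the filter, so its lack of calls says nothing. The PC-3 DMSO group of 2 samples, KRT83 and KRT86 counts of 0 to 8 reads there, and reads shared between copies limit these values.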
